A study of Mus musculus with 8 samples.

Results

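Messenger RNA of 10 genes of NRF2 signaling and antioxidant defense was measured in mouse liver with and without hepatocyte RORα and on 2 diets. The genes are Nfe2l2, which encodes NRF2, and Gclc, Gclm, Nqo1, Hmox1, Txnrd1, Srxn1, Cat, Sod1 and Gpx1, taken by their symbols from the 38283 genes of the deposited table, and all 10 were among the 11634 genes that passed the filter on low values, which was FPKM (the count of fragments scaled to transcript length and to the mapped reads of the library) above 1 in at least 1 library. RORα is a nuclear receptor, and RORα LKO mice carry floxed Rora alleles (exons 4 and 5) with a Cre driven by the albumin promoter, so that the deletion is directed to hepatocytes, while RORα f/f mice carry the floxed alleles without Cre. All mice had the C57BL/6 background and started a control diet (CD) or a high-fat diet (HFD) at 8 weeks of age for 10 weeks. Both genotypes were thus studied on both diets, which gives 4 groups of 4 mice, and RNA of 2 livers was pooled for each of the 2 libraries of a group.

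NRF2 is a transcription factor that KEAP1 holds in the cytoplasm and marks for degradation. When electrophiles or oxidants modify KEAP1, NRF2 enters the nucleus, pairs with small MAF proteins and binds antioxidant response elements (AREs) in genes for glutathione synthesis, quinone reduction, heme breakdown and thioredoxin reduction. Catalase, superoxide dismutase and glutathione peroxidase remove hydrogen peroxide and superoxide directly and are abundant in hepatocytes at rest, and the liver is the main source of glutathione in the blood.

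The ARE core of 9 letters, TGACNNNGC, is shown where it occurs in the promoters of these genes, since it is the sequence that NRF2 reads. RefSeq promoters (GRCm38.p6, from 250 bases before to 50 after a transcript start) were at hand for 8 of the 10 genes, not for Gclc and Hmox1. A match on either strand was found for 5 genes, Nfe2l2, Gclm, Txnrd1, Srxn1 and Sod1, and 12.4% of all 32851 promoters held one. The windows below run 5′ to 3′ on the strand of the gene, with the match in capitals, which reads GCNNNGTCA where the core lies on the other strand.
Nfe2l2, 240 bases before the start (chr2:75704885-75704913, minus strand): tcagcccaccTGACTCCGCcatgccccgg
Gclm, 134 bases before the start (chr3:122245413-122245441, plus strand): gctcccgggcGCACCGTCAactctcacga
Txnrd1, 92 bases before a start (chr10:82859104-82859132, plus strand): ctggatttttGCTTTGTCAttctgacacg
Srxn1, 29 bases after the start (chr2:152105542-152105570, plus strand): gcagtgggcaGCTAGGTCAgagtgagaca
Sod1, 56 bases before the start (chr16:90220696-90220724, plus strand): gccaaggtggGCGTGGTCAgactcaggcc

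The core sequence that ROR receptors bind, AGGTCA, was searched in the same windows, because the genotype comparison concerns RORα. The study describes the full element as this core, with A or G first, after an A/T-rich stretch. It also states that the element of another nuclear receptor, PPARγ, shares the core. The A/T-rich stretch was not part of the search. AGGTCA occurred in 16.3% of all promoters, and among the 8 genes in those of Cat and Srxn1. The site of Srxn1 after the start overlaps the ARE match above.
Cat, 204 bases before the start (chr2:103485342-103485367, minus strand): tgactctcagAGGTCAgagaacacca
Srxn1, 215 bases before the start (chr2:152105299-152105324, plus strand): aaatgtgagtAGGTCAtcacacttgg
These are matches of letters, and binding was not measured here.

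Genes above 1 FPKM numbered from 10587 to 10706 per library. The deposited table gives no read counts, so that the depth behind a value is unknown. Rora was 8.72 ± 0.184 (SD, n = 2) FPKM in CD-fed RORα f/f and 8.07 ± 0.151 in CD-fed RORα LKO libraries, and 7.71 ± 0.216 against 7.66 ± 0.506 on HFD, where the libraries of the genotypes overlapped. FPKM is summed over the whole gene, so that it does not isolate the deleted exons, and the libraries are called LKO-labelled and f/f-labelled. Hepatocyte markers were present, but Alb was listed at 0 in 4 libraries (replicate 1 of CD-fed LKO-labelled, replicate 2 of HFD-fed f/f-labelled and both HFD-fed LKO-labelled) and at 29902 to 30888 FPKM in the others. Summed erythroid markers (5 genes, none at 0 in any library) ranged from 85.9 to 502 FPKM on CD and from 65.8 to 228 on HFD. Summed stellate cell markers (5 genes) ranged from 36.2 to 57.5 on CD and from 66.7 to 91.4 on HFD. Neutrophil, adipocyte, and T and B cell markers summed to at most 5.47 FPKM.

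The 10 genes spanned a wide range of levels. On the FPKM scale, which is per transcript length, Gpx1 (mean over the 8 libraries 1314), Sod1 (1249) and Cat (1229) were the highest. Each of these neighbours was in this order in only 5 of 8 libraries, so that the 3 do not differ beyond their spread. Cat was 13.3 times above the next gene, Gclm (92.5), which was above Gclc (69.1) in all 8 libraries although their ranges overlapped. Nfe2l2 (35.8) and Txnrd1 (34.1) lay close together and overlapped. Srxn1 (14.5), Hmox1 (7.75) and Nqo1 (3.51) followed, each below its neighbour in all 8 libraries without overlap. As a set the 10 genes varied among libraries about as much as other tested genes, with 6 of them below the median of all. The SD of the normalized log2 values over the 8 libraries had a median of 0.141 for the 10 genes and 0.152 for all tested genes, and it ran from 0.11 for Txnrd1 to 0.32 for Gclc.

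**Figure D1:**
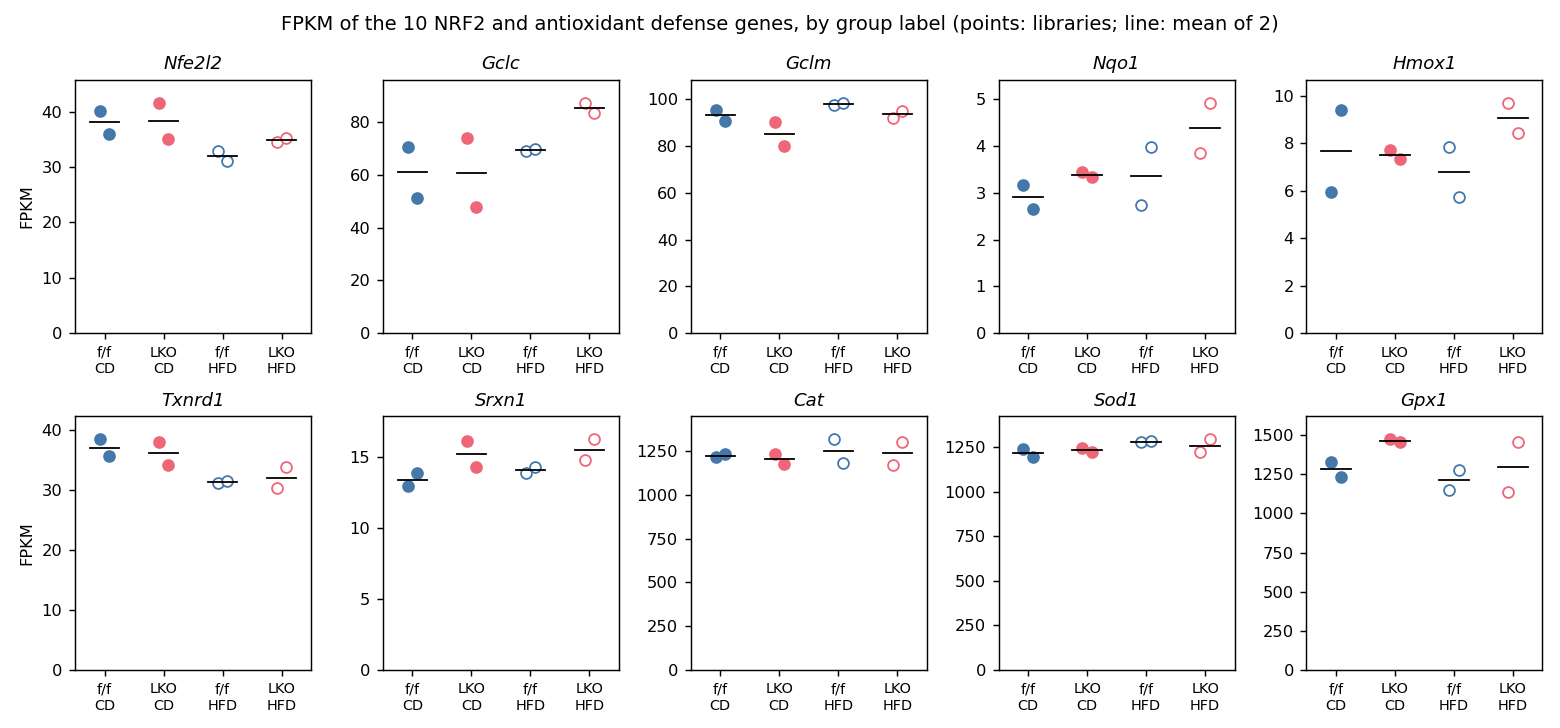
FPKM (vertical axes, from 0) of each of the 10 genes in the 4 groups, with 1 point per library, filled for CD and open for HFD, blue for f/f-labelled and red for LKO-labelled, and a line at the mean of 2 libraries. The 8 libraries of Cat and Sod1 are nearly level, while Gclc ranges from 47.9 to 87.4.

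The genotype comparison asks whether these genes differ between the genotypes. None of the 10 passed the test, on HFD (limma with Benjamini-Hochberg adjustment, adjusted p from 0.60 to 0.95), on CD (0.41 to 1.0) or over both diets (0.26 to 0.94). Few genes of any kind did, 5 of 11634 (0.043%) on HFD, 2 (0.0172%) on CD and 12 (0.103%) over both diets. With limma p unadjusted and under 0.05, 0, 1 and 1 of the 10 genes were counted in these comparisons, against 9.58%, 12.3% and 13.5% of all tested genes. The median log2 difference of the 10 genes was 0.16 on HFD, 0.01 on CD and 0.12 over both diets, beside -0.001, -0.001 and 0 for all tested genes. The libraries of the 2 genotypes did not overlap on the normalized scale for 5 of the 10 genes on HFD (42.2% of all tested genes), for 4 on CD (43.0%) and for none over both diets (4.84%). In FPKM they did not overlap for 5 on HFD (42.1%), for 4 on CD (43.3%) and for 1 over both diets (4.91%). All these comparisons and those of diet use the same 8 libraries.

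Nfe2l2 was 40.2 and 36.0 FPKM in CD-fed f/f-labelled livers, 41.6 and 35.0 in CD-fed LKO-labelled, 32.8 and 31.1 in HFD-fed f/f-labelled, and 34.5 and 35.2 in HFD-fed LKO-labelled. The genotypes overlapped on CD, and on HFD the LKO-labelled libraries were both above the f/f-labelled. The log2 difference on HFD was 0.15 with a 95% interval from -0.08 to 0.38 (limma, adjusted p = 0.67).

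Gclc and Gclm encode the catalytic and the modifier subunit of glutamate-cysteine ligase, the rate-limiting enzyme of glutathione synthesis. Gclc was 70.4 and 51.4 FPKM in CD-fed f/f-labelled livers, 73.8 and 47.9 in CD-fed LKO-labelled, 68.9 and 69.7 in HFD-fed f/f-labelled, and 87.4 and 83.4 in HFD-fed LKO-labelled. Both HFD-fed LKO-labelled libraries were thus above every other library, and the 2 CD-fed groups spread widely. The log2 difference between the genotypes on HFD was 0.30 (SE 0.21, interval -0.21 to 0.81, limma adjusted p = 0.70). Gclm was 95.5 and 90.8 FPKM in CD-fed f/f-labelled livers, 90.3 and 80.1 in CD-fed LKO-labelled, 97.4 and 98.6 in HFD-fed f/f-labelled, and 92.0 and 95.2 in HFD-fed LKO-labelled. It was the only gene of the 10 whose difference over both diets was below 0, at -0.09 (SE 0.05, limma adjusted p = 0.52), and it did not pass the test. The low Gclc libraries, replicate 2 of each CD-fed group, also held the most erythroid marker RNA (420 and 502 FPKM, against 85.9 and 247 in the other CD-fed libraries). In both HFD-fed groups the library with the higher erythroid sum had the higher Gclc. The opposite order thus held in 2 of 4 groups. The part of erythroid RNA in the Gclc values was not tested.

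Nqo1 encodes a quinone reductase that is the classical readout of NRF2 activity. It was 3.17 and 2.66 FPKM in CD-fed f/f-labelled livers, 3.44 and 3.33 in CD-fed LKO-labelled, 2.75 and 3.98 in HFD-fed f/f-labelled, and 3.84 and 4.93 in HFD-fed LKO-labelled. The CD-fed genotypes did not overlap and the HFD-fed ones did. The log2 difference was 0.32 on HFD (interval -0.08 to 0.72, limma adjusted p = 0.61) and 0.15 on CD (interval -0.25 to 0.55, adjusted p = 0.74). The HFD value moved to 0.10 without replicate 1 and to 0.54 without replicate 2 of the HFD-fed f/f-labelled libraries. Over both diets it was 0.24, the largest genotype difference of the 10 genes.

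Hmox1 encodes heme oxygenase 1, which breaks heme down to biliverdin and is also made by macrophages. It was 5.94 and 9.41 FPKM in CD-fed f/f-labelled livers, 7.69 and 7.31 in CD-fed LKO-labelled, 7.83 and 5.72 in HFD-fed f/f-labelled, and 9.70 and 8.44 in HFD-fed LKO-labelled. The HFD-fed LKO-labelled libraries were above the HFD-fed f/f-labelled, with a log2 difference of 0.40 (interval -0.08 to 0.89, limma adjusted p = 0.60), and on CD the genotypes overlapped. That difference was 0.59 without replicate 1 and 0.22 without replicate 2 of the HFD-fed f/f-labelled libraries. Summed markers of Kupffer cells and macrophages (10 genes, none at 0 in any library) were 133 and 165 FPKM in the CD-fed f/f-labelled, 134 and 119 in CD-fed LKO-labelled, 118 and 95.03 in HFD-fed f/f-labelled, and 171 and 114 in HFD-fed LKO-labelled libraries. Within each of the 4 groups the library with the higher macrophage sum also had the higher Hmox1, an order looked for after the values were seen, and their part in the Hmox1 values was not tested. The stellate cell sum had that order too, in 4 of 4 groups. In whole liver, fewer cells of a type and less RNA per cell cannot be told apart.

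Txnrd1 encodes the cytosolic thioredoxin reductase, and Srxn1 encodes sulfiredoxin, which restores over-oxidized peroxiredoxins. Txnrd1 was 38.4 and 35.7 FPKM in CD-fed f/f-labelled livers, 38.0 and 34.2 in CD-fed LKO-labelled, 31.2 and 31.5 in HFD-fed f/f-labelled, and 30.2 and 33.8 in HFD-fed LKO-labelled, so that the genotypes overlapped on both diets. Srxn1 was 13.0 and 13.8 FPKM in CD-fed f/f-labelled livers, 16.1 and 14.3 in CD-fed LKO-labelled, 13.8 and 14.3 in HFD-fed f/f-labelled, and 14.8 and 16.2 in HFD-fed LKO-labelled. It was the only one of the 10 genes whose 4 LKO-labelled FPKM values were all above the 4 f/f-labelled ones, by no more than 14.3019 against 14.3016 FPKM at the nearest pair (CD-fed LKO-labelled and HFD-fed f/f-labelled, replicate 2 of each), and after normalization the genotypes overlapped. The log2 difference of Srxn1 over both diets was 0.18 (SE 0.06, interval 0.04 to 0.31), and it did not pass the adjustment (limma, adjusted p = 0.26).

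Cat encodes peroxisomal catalase, Sod1 the cytosolic copper and zinc superoxide dismutase, and Gpx1 the main cytosolic glutathione peroxidase, a selenoprotein. Cat was 1217 and 1233 FPKM in CD-fed f/f-labelled livers, 1235 and 1175 in CD-fed LKO-labelled, 1317 and 1184 in HFD-fed f/f-labelled, and 1173 and 1301 in HFD-fed LKO-labelled. Sod1 was 1241 and 1197 FPKM in CD-fed f/f-labelled livers, 1247 and 1226 in CD-fed LKO-labelled, 1279.7 and 1284 in HFD-fed f/f-labelled, and 1223 and 1295 in HFD-fed LKO-labelled. The genotypes overlapped for both genes on either diet, and the ratio of highest to lowest library was 1.12 for Cat and 1.08 for Sod1. Gpx1 was 1331 and 1233 FPKM in CD-fed f/f-labelled livers, 1474 and 1457 in CD-fed LKO-labelled, 1150.3 and 1276 in HFD-fed f/f-labelled, and 1136 and 1456 in HFD-fed LKO-labelled. On CD its LKO-labelled libraries were both above the f/f-labelled, with a log2 difference of 0.15 (interval -0.19 to 0.50, limma adjusted p = 0.69), and on HFD the genotypes overlapped. Over both diets the values of the LKO-labelled libraries were higher for 9 of the 10 genes, although those of Txnrd1, Cat and Sod1 turned below 0 without normalization.

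Whether the genotype difference itself depended on the diet was tested as the interaction. None of the 10 genes passed (limma, adjusted p from 0.73 to 0.97), while 4 of 11634 genes did (0.0344%). At an unadjusted limma p under 0.05 the count was again 0 of the 10, against 8.35% of all tested genes. The largest interaction was that of Hmox1, at 0.40 on the log2 scale with an interval from -0.29 to 1.08. That of Gclc was 0.30 with an interval from -0.42 to 1.01. Differences between the diets in the genotype effect of up to about 1 on the log2 scale were therefore within the intervals of these 2 genes.

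The diet comparison asks how these genes differ between HFD-fed and CD-fed livers. Averaged over the genotypes, 1 of the 10 passed the test, Sod1, beside 1151 of 11634 tested genes (9.89%, with 586 or 5.04% higher and 565 or 4.86% lower on HFD). Sod1 was 1.03 times higher on the FPKM scale (1271 ± 32.1 against 1228 ± 22.4, SD, n = 4), and 0.25 higher on the quantile-normalized log2 scale (SE 0.06, limma adjusted p = 0.045). The call was lost under other scalings of the libraries (log2 difference 0.05 and 0.08) and without each library in turn (limma adjusted p from 0.054 to 0.13). Within a genotype, none of the 10 passed, where 1.33% of tested genes did in f/f-labelled (0.627% higher and 0.705% lower) and 3.02% in LKO-labelled libraries (1.57% higher and 1.44% lower) (limma, lowest adjusted p of the 10 genes 0.19 and 0.12). At an unadjusted limma p under 0.05, the genes counted were 5 of 10 over both genotypes, 2 in f/f-labelled and 4 in LKO-labelled libraries, against 27.9%, 19.2% and 21.3% of all tested genes. The genes behind these counts changed with the scaling. Without normalization Gclc, Gclm, Cat and Sod1 left the count over both genotypes, Txnrd1 stayed and Nfe2l2 entered. After median centring Cat and Sod1 left it, and Gclc, Gclm and Txnrd1 stayed. In LKO-labelled libraries only Gclc stayed under either of these scalings. The diets did not overlap on the normalized scale for 3 of the 10 genes over both genotypes (16.7% of all tested genes), for 7 in f/f-labelled (50.3%) and for 6 in LKO-labelled libraries (52.9%), and in FPKM for 1 (16.5%), 4 (49.9%) and 6 (53.2%).

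Among the other genes the values moved both ways without passing the test. Gclc was 77.3 ± 9.41 FPKM on HFD and 60.9 ± 13.2 on CD (SD, n = 4), a log2 difference of 0.42 (SE 0.15, limma adjusted p = 0.13), and its diets overlapped. In LKO-labelled libraries alone the difference of Gclc was 0.57 (interval 0.06 to 1.07, adjusted p = 0.19), with both HFD-fed libraries above both CD-fed. Gclm was 0.18 higher on HFD (SE 0.05, adjusted p = 0.077), and its 4 HFD-fed libraries all lay above the 4 CD-fed ones on the normalized scale but not in FPKM. Without normalization the difference of Gclm was 0.10 (adjusted p = 0.27). Without replicate 1 of the CD-fed LKO-labelled libraries both subunits passed, with a log2 difference of 0.57 for Gclc and 0.22 for Gclm (limma adjusted p = 0.046 for each), and without any other library neither did. Of the marker sums given above, those of stellate cells did not overlap between the diets, while the erythroid sums did. The part of either in these values was not tested.

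Nfe2l2 and Txnrd1 had lower values on HFD under each of the 3 scalings of the libraries (quantile normalization, none, and median centring). The log2 difference of Nfe2l2 was -0.16 (SE 0.07, limma adjusted p = 0.19), from 38.2 ± 3.19 FPKM on CD to 33.4 ± 1.85 on HFD (SD, n = 4). That of Txnrd1 was -0.17 (SE 0.06, adjusted p = 0.13), from 36.6 ± 1.99 to 31.7 ± 1.5 FPKM. Txnrd1 was the only one of the 10 genes whose 4 HFD-fed FPKM values lay apart from the 4 CD-fed ones, and its normalized values overlapped. Nqo1 differed by 0.24 (adjusted p = 0.24), Hmox1 by 0.08 (0.76) and Srxn1 by 0.08 (0.43), none past the test.

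**Figure D2:**
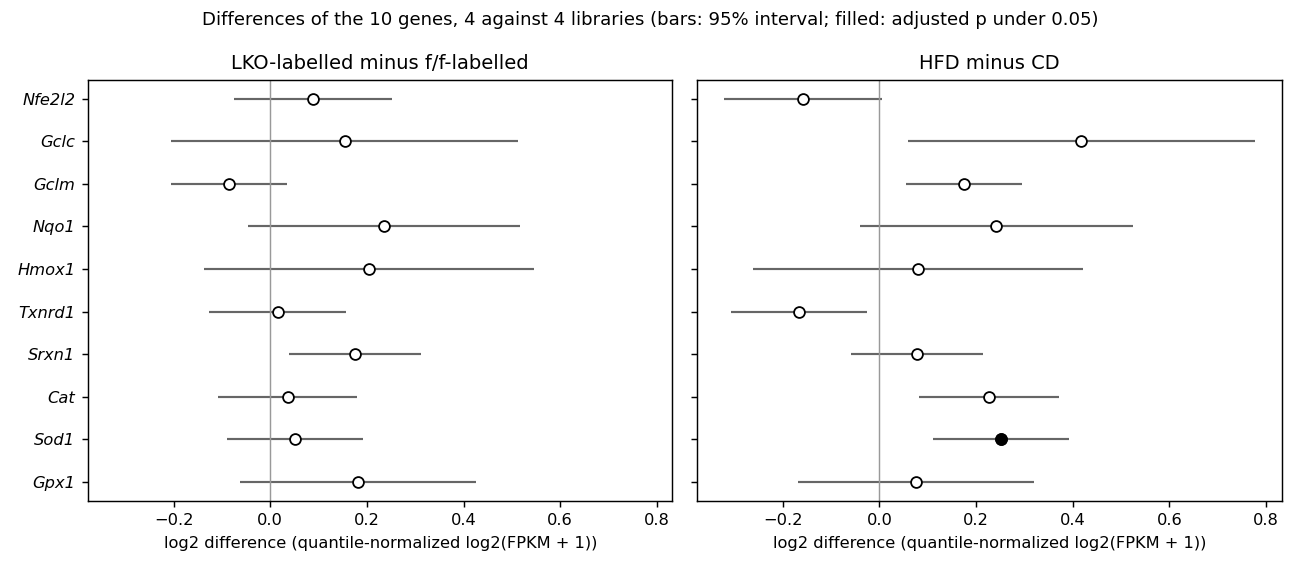
Log2 differences (horizontal axis, quantile-normalized log2(FPKM + 1)) of the 10 genes between the genotypes (left, LKO-labelled minus f/f-labelled) and between HFD and CD (right), 4 libraries against 4, with 95% intervals from limma. Only Sod1 on the right, at 0.25, is filled for an adjusted p under 0.05.

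For the 3 most abundant genes the diet difference followed the scaling of the libraries. Sod1 differed by 0.25 after quantile normalization, by 0.05 without normalization (limma adjusted p = 0.55) and by 0.08 when each library was centred on its median (0.35). Cat differed by 0.23 after quantile normalization (adjusted p = 0.064) and by 0.03 and 0.06 under the other scalings. The difference of Gpx1 changed sign, from 0.08 after quantile normalization to -0.13 without it and -0.11 after centring. None of the other 7 genes changed sign in this comparison under these 3 scalings. Over all 109 tested genes with a mean FPKM from 500 to 2000, which hold the 3 genes, the median diet difference was 0.11 after quantile normalization, -0.13 without it and -0.11 after centring. The median of all tested genes was 0.01, -0.02 and 0.01. The share of the summed FPKM taken by the 10 highest genes ranged from 29.7% to 43.7%, and Alb was listed at 0 in 3 of the 4 HFD-fed and 1 of the 4 CD-fed libraries. The part of these in the shift of the abundant genes was not tested.

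**Figure D3:**
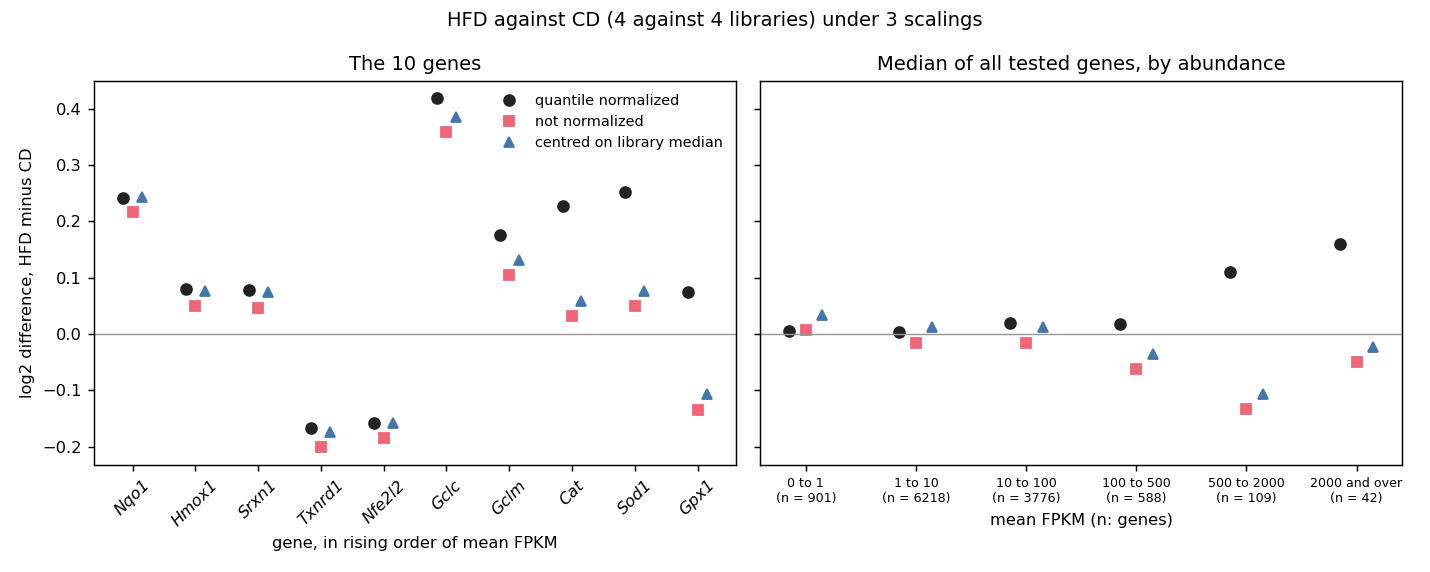
Log2 difference between HFD and CD (vertical axes) for the 10 genes in rising order of mean FPKM (left) and as the median of all tested genes in 6 bins of mean FPKM (right), after quantile normalization (circles), without it (squares) and after median centring (triangles). The scalings lie closer together for the 7 genes below 100 FPKM than for Cat, Sod1 and Gpx1, and the bins above 500 FPKM part in the same way.

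Related genes were followed in 9 hand-made lists, of which 118 of 128 genes were tested. The lists were chosen with earlier results of these data known, so that their shares beside those of all tested genes are no test of the lists. No gene of the lists passed the limma test in any genotype comparison or in the interaction. At an unadjusted p under 0.05 there were 21 on HFD (17.8%, against 9.58% of all tested genes), 15 on CD (12.7%, against 12.3%), 21 over both diets (17.8%, against 13.5%) and 12 by interaction (10.2%, against 8.35%). By diet over both genotypes, 10 rose and 12 fell on HFD (18.6%, against 9.89% of all tested genes). In f/f-labelled libraries alone 3 rose and 2 fell (4.24%, against 1.33% of all tested genes), and in LKO-labelled libraries alone also 3 and 2 (4.24%, against 3.02%). Of the 22 genes that passed over both genotypes, 6 did so under every alternative run, Gstm3, Gstp1, Glrx, Cth, Cyp2e1 and Prodh, and the other 16 lost the call without at least 1 library. The 10 genes of the lists that were not tested had at most 0.688 FPKM in any library, among them Slc7a11, the cystine transporter, and Aldh3a1.

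Of the genes that control NRF2 none of 12 passed the diet test, with a median difference of -0.06. Keap1 encodes the repressor of NRF2, and Sqstm1 the autophagy receptor p62, which displaces NRF2 from that repressor. Both were named because their 4 LKO-labelled libraries lay above the 4 f/f-labelled ones on the normalized scale. The genotypes did not overlap on that scale for 4.84% of all tested genes, and in FPKM those of Sqstm1 overlapped. The log2 differences of Keap1 and Sqstm1 by genotype were 0.19 and 0.16, and neither passed (limma, adjusted p = 0.23 and 0.18).

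Among NRF2 targets in drug and quinone handling, 5 of 19 fell on HFD and 1 rose, and the median was -0.17. By the same test 4.86% of all tested genes fell and 5.04% rose, shares that also stand beside the counts of the lists below. The 5 are Gsta2, Gstm1, Gstm3 and Gstp1, which encode glutathione transferases, and Ephx1, the microsomal epoxide hydrolase. Gstm3 fell by 1.85 on the log2 scale (SE 0.15, limma adjusted p = 0.0033). Its FPKM was 33.9, 36.1, 25.8 and 27.0 in the CD-fed libraries and 7.06, 9.79, 8.69 and 5.43 in the HFD-fed ones. Gstp1 fell by 0.92 (SE 0.12, adjusted p = 0.0093), from 1251 to 1535 FPKM on CD to 482 to 990.2 on HFD. Its log2 difference was -0.53 in f/f-labelled (limma adjusted p = 0.17) and -1.30 in LKO-labelled libraries (0.019), and its interaction did not pass (0.56). Both genes had all HFD-fed libraries below all CD-fed ones. Gsta2 fell by 0.67, Ephx1 by 0.43 and Gstm1 by 0.37, and Gstt1 rose by 0.39. Glutathione transferases of 1 class are closely similar in sequence, so that the split of reads among them is uncertain. Gstm4 differed by 0.60 between the genotypes, the largest genotype difference among the genes of the lists whose libraries did not overlap (18.2 and 17.3 FPKM in CD-fed f/f-labelled, 28.4 and 24.9 in CD-fed LKO-labelled, 15.5 and 14.7 in HFD-fed f/f-labelled, 25.3 and 21.3 in HFD-fed LKO-labelled libraries). It did not pass the test (limma, adjusted p = 0.068). Nqo2, a relative of Nqo1, differed by 0.19 (adjusted p = 0.24).

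Glutathione synthesis and use had 3 of 19 genes that rose on HFD and 1 that fell. Glrx, encoding glutaredoxin 1, which reduces glutathionylated proteins, rose by 0.55 on the log2 scale (SE 0.05, limma adjusted p = 0.0042), from 36.4 to 40.7 FPKM on CD to 51.4 to 57.8 on HFD. Glo1, encoding glyoxalase 1, which removes methylglyoxal, rose by 0.32 (0.26 and adjusted p = 0.052 without normalization). Cth, encoding cystathionine gamma-lyase, which makes cysteine for glutathione, fell by 0.49 (SE 0.07, adjusted p = 0.0094). Mgst1, a microsomal glutathione transferase, rose by 0.33 after quantile normalization and differed by -0.20 without it and -0.17 after centring.

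NADPH feeds the reduction of glutathione and of thioredoxin. Of 10 genes of its supply, Nnt, the mitochondrial transhydrogenase, rose by 0.29, while Pgd, of the pentose phosphate pathway, fell by 0.39, Idh1 by 0.24 and Nadk, which makes NADP from NAD, by 0.39. In the thioredoxin and peroxiredoxin list 1 of 16 passed, Txnip, which encodes the thioredoxin-interacting protein and fell by 0.87 (SE 0.20, limma adjusted p = 0.045, or 0.054 after centring). Prdx4, of the endoplasmic reticulum, differed by -0.24 after quantile normalization (adjusted p = 0.063), and passed without normalization (-0.30, adjusted p = 0.027) and after centring (-0.27, adjusted p = 0.046). No gene of the 7 of the superoxide dismutase and metal binding list passed.

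In the heme and iron list 1 of 9 fell, Hpx, which encodes the heme scavenger hemopexin, by 0.43, and by 0.75 without normalization. The selenoprotein list had 2 of 13 that rose, Selenop and Scly, and 1 that fell, Selenof. Selenop, the plasma selenium carrier, rose by 0.47 after quantile normalization and differed by -0.04 without it and -0.01 after centring. Scly, which recycles selenium, rose by 0.23 and missed the threshold under both other scalings (limma adjusted p = 0.076 and 0.053). Selenok had all HFD-fed libraries below the CD-fed ones, at -0.33, and did not pass (limma adjusted p = 0.051). By genotype, Dio1, Blvrb (heme list) and Taldo1 (NADPH list) had all LKO-labelled above all f/f-labelled libraries on the normalized scale. Their log2 differences were 0.26, 0.16 and 0.20, and none passed (limma, adjusted p = 0.19, 0.26 and 0.27). All were named for that lack of overlap, and in FPKM Blvrb and Taldo1 overlapped. Among 13 tested genes for sources of oxidants 3 rose, Cyp2e1, Prodh and Maob. Cyp2e1, a cytochrome P450 that releases superoxide and hydrogen peroxide, rose by 0.92 (SE 0.07, adjusted p = 0.0031), and by 0.55 without normalization (adjusted p = 0.013). It ran from 3875 to 4680.2 FPKM in the CD-fed and from 5512 to 6770.1 in the HFD-fed libraries. Prodh, the mitochondrial proline dehydrogenase, rose by 0.46 and Maob, the monoamine oxidase B, by 0.36. The differences in f/f-labelled and LKO-labelled libraries alone were 0.67 and 1.17 for Cyp2e1 and 0.70 and 0.23 for Prodh. Neither interaction passed (limma, adjusted p = 0.56 and 0.52).

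**Figure D4:**
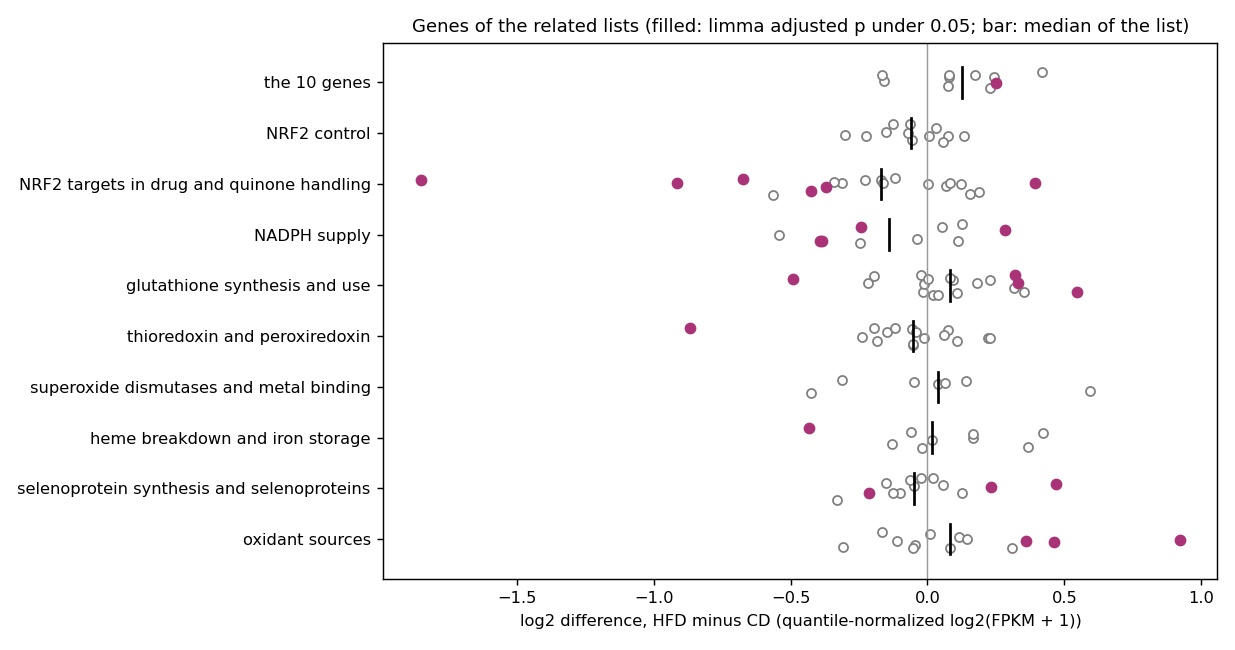
Log2 difference between HFD and CD over both genotypes (horizontal axis) for each tested gene of the 10 genes and of 9 related lists, filled where the limma adjusted p is under 0.05, with a bar at the median of each list. The 10 genes lie between -0.17 and 0.42, and Gstm3, at -1.85, and Cyp2e1, at 0.92, lie farthest out among the related genes.

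The genes most like Nfe2l2 across the 8 libraries, among 4515 genes with a mean FPKM of at least 10, were Aox1 (Pearson's r = 0.947), Sptan1 (0.924) and Zc3hav1 (0.914). Those most like Gclc, the gene with the largest spread, were Slc17a1 (0.963), F9 (0.957) and Ppp1r3c (0.950). Those most like Hmox1 were Tsc22d1 (0.879), Pafah1b1 (0.875) and Ankrd46 (0.871). These values describe 8 libraries that share the diet contrast and the scaling, and they were picked as the highest of all those searched.

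All 10 genes are protein coding, and on GRCm38 they lie on chromosomes 2 (Nfe2l2, Srxn1 and Cat), 3 (Gclm), 8 (Nqo1 and Hmox1), 9 (Gclc and Gpx1), 10 (Txnrd1) and 16 (Sod1). Nfe2l2 spans chr2:75675513-75704641 on the minus strand and Sod1 spans chr16:90220754-90226329 on the plus strand. The library kit does not mark strand, and Gclm, Txnrd1 and Sod1 overlap genes on the opposite strand, for Sod1 the gene Scaf4. Nfe2l2, Gclm and Txnrd1 also overlap another gene on their own strand. Reads of such an overlap cannot be assigned to 1 gene with certainty.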

How the data were processed

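Liver RNA of 8 libraries (4 groups of 2, each a pool of 2 mice) was sequenced after poly(A) selection. Per the labels and the study's methods, the authors trimmed reads with cutadapt 1.0, aligned them to GRCm38 with TopHat2 2.0.7 and deposited FPKM per gene from Cufflinks. The deposited FPKM values are not on a log scale and carry no counts, so that no count test was run. Because FPKM is relative to all mapped reads, a few very high genes can shift the values of the others.

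Groups came from the labels. Of 38283 gene identifiers 36341 matched a symbol. The filter of the study was used, which asks for more than 1 FPKM in any of the 8 libraries, and log2(FPKM + 1) was quantile normalized, also as in the study. All comparisons came from 1 fit of the 4 groups with limma 3.58.1 in R 4.3.3 (mean-variance trend, Benjamini-Hochberg adjustment over 11634 genes, threshold 0.05). Limma was used in place of the study's permutation procedure. The fit had 4 residual degrees of freedom, to which limma added 2.8. Libraries are pools of different mice, and the spread within a group rests on 2 of them. The limma fit was tested on simulated normalized values, for the diet comparison over both genotypes only. The filter and the normalization were not part of that test. Intervals are 95% intervals of limma.

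Named genes are the 10 genes, list genes past the threshold in a comparison, for each list and for genotype and diet the 2 largest differences among genes whose libraries did not overlap, and the 3 genes most like Nfe2l2, Gclc and Hmox1. The members and lists were chosen with earlier results of these data known, and the lists were compiled by hand. A marker gene of these lists is not reported here. Alternatives were no normalization, median centring, another pseudocount (0.1), a stricter filter (above 1 FPKM in every library), a looser one (above 0 in any), a replicate block, no trend, separate fits for each comparison of 2 groups, and each library left out in turn. Same-numbered libraries come from different mice, and their deviations correlated with r from -0.0037 to 0.149, so that the numbers were not taken as pairs. Figures were drawn with matplotlib 3.10.9.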

Additional observations from a re-analysis of the deposited data

How the results depend on the processing

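Sod1 kept its diet call with a pseudocount of 0.1 (limma adjusted p = 0.044) and with the filter of FPKM above 1 in all 8 libraries (0.036). It lost the call without normalization (log2 difference 0.049), after median centring (0.076), with FPKM above 0 in any library (adjusted p = 0.11), without the trend (0.051), under the replicate block (0.072) and without each library in turn (0.054 to 0.13).

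Other directions turned with the scaling. Without normalization and after median centring, in that order, Gpx1 differed by diet by -0.134 and -0.107 over both genotypes, -0.080 and -0.054 in f/f-labelled and -0.188 and -0.160 in LKO-labelled libraries. Cat differed by genotype by -0.020 and -0.013 over both diets and -0.016 and -0.008 on HFD, Sod1 by -0.026 and -0.019 on HFD, and Gclc by -0.016 and -0.010 on CD. The interactions became -0.047 and -0.046 for Sod1 and -0.108 and -0.106 for Gpx1, and with the filter of FPKM above 1 in all libraries -0.040 and -0.001. Without normalization Txnrd1 and Sod1 differed by genotype over both diets by -0.004 and -0.003. Mgst1 and Selenop differed by diet by -0.199 and -0.040 without normalization and by -0.171 and -0.012 after centring. The causes were not tested.

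The counts of genes past the threshold moved more. With FPKM above 0 in any library they were 24 (genotype on HFD), 10 (genotype on CD), 46 (diet in f/f), 135 (diet in LKO), 28 (genotype over diets), 704 (diet over genotypes) and 19 (interaction). With FPKM above 1 in all libraries they were 7 on CD, 323 and 570 by diet in f/f-labelled and LKO-labelled libraries, 50 by genotype over diets and 0 by interaction. With a pseudocount of 0.1 there were 1 on CD and 2 by interaction, without the trend 42 and 229 by diet in f/f-labelled and LKO-labelled libraries, and without normalization 7 by genotype over diets. In separate fits there were 0 on CD, 5 by diet in f/f-labelled and 0 in LKO-labelled libraries, with fewer libraries to estimate the spread. With the replicate block, although the numbers are not pairs, the counts by diet were 34 in f/f-labelled, 223 in LKO-labelled libraries and 882 over both.

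Without each library in turn the counts ranged from 4 to 21 (genotype on HFD), 2 to 19 (genotype on CD), 13 to 30 (genotype over diets), 14 to 49 (diet in f/f), 21 to 154 (diet in LKO), 374 to 816 (diet over genotypes) and 10 to 21 (interaction). Where the sign of a gene turned, its log2 difference by genotype on CD ranged from -0.301 to 0.314 for Gclc, -0.282 to 0.293 for Hmox1, -0.104 to 0.152 for Nfe2l2, -0.029 to 0.113 for Sod1, -0.110 to 0.063 for Txnrd1 and -0.056 to 0 for Cat. It ranged on HFD from -0.011 to 0.114 for Txnrd1, and over both diets from -0.003 to 0.073 for Cat, -0.001 to 0.307 for Gclc and -0.029 to 0.058 for Txnrd1. By diet it ranged over both genotypes from -0.022 to 0.179 for Gpx1 and -0.064 to 0.223 for Hmox1, in f/f-labelled libraries from -0.056 to 0.161 for Gpx1, -0.405 to 0.169 for Hmox1 and -0.061 to 0.381 for Nqo1, and in LKO-labelled libraries from -0.089 to 0.306 for Gpx1, -0.222 to 0.034 for Nfe2l2 and -0.016 to 0.136 for Srxn1. The interactions ranged from -0.013 to 0.60 for Gclc, -0.133 to 0.255 for Gpx1, -0.058 to 0.384 for Nqo1, -0.049 to 0.091 for Sod1, -0.113 to 0.041 for Srxn1 and -0.012 to 0.161 for Txnrd1. The lone library left in a group is assumed to vary like the other groups. With 2 libraries in a group and no counts, a gene that did not pass may still differ by an amount within its interval.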
